A study of Mus musculus with 8 samples.

Results

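The genes described here are 10 transcription factor genes of the AP-1 and immediate early class, Fos, Fosb, Fosl1, Fosl2, Jun, Junb, Jund, Atf3, Maff and Egr1. They were taken by symbol from a count table of 56691 genes, and all 10 were found. Their RNA was measured by bulk sequencing of organoids, cell clusters grown from the glandular stomach (hindstomach) epithelium of mouse embryos at day 18.5. The organoids had 5 days of growth medium and then 7 days of differentiation medium. The control group, Ctrl, has the genotype Shh-Cre (4 libraries) and the other group has the genotype Shh-Cre;YAP5SA (4 libraries). Both groups thus carry Shh-Cre, a recombinase driven by the regulatory sequences of the sonic hedgehog gene, which is active in early endoderm. YAP5SA is a form of the Hippo pathway coactivator YAP with its inhibitory phosphorylation sites mutated. The labels number the replicates but name no embryo or litter behind them. Every p-value therefore reflects spread among these libraries only, and that spread may be technical.

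AP-1 is a family of dimers of basic leucine zipper proteins. FOS proteins need a JUN partner to bind DNA, whereas JUN proteins can also pair with themselves or with ATF proteins. Many of these genes are immediate early genes: growth factors, serum, wounding or stress switch them on quickly through MAP kinases and the serum response factor SRF, without new protein synthesis. At many enhancers of epithelial cells AP-1 and TEAD, the DNA-binding partner of YAP, are known to sit side by side. EGR1 is a zinc finger factor outside the AP-1 family that answers to the same signals.

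Total counts were 17387372 to 25841256 per library, and all 10 genes passed the filter on low counts. A gene was called where its edgeR p-value, adjusted over all genes tested, was under 0.05. Of 13812 genes tested 8907 were called, 4577 higher and 4330 lower in YAP5SA (5742 and 3201 with library size scaling). The YAP target genes Ccn1, Ccn2, Ankrd1, Amotl2, Axl and Lats2 were all higher in YAP5SA, with log2 fold changes from 1.79 (Lats2) to 3.76 (Ccn1). Levels are given as CPM, counts scaled to the TMM-adjusted library total. The 8 epithelial markers were each at 80.5 CPM or more in every library, with sums of 19000 to 20200 CPM in Ctrl and 12900 to 15100 in YAP5SA. They did not fall as a set, with 4 called higher, 3 lower and a median log2 fold change of 0.16. That is 87.5% called, beside 64.5% of all genes tested. Krt8 (5370 to 2390 CPM on average), Krt19 (6400 to 3140) and Cdh1 were lower. Epcam (296 to 592 CPM), Cldn4, Cldn7 and Krt7 were higher, and Krt18 was not called. Of 10 fibroblast markers none was tested, 4 were at 0 in all libraries, and their sum was at most 0.415 CPM in Ctrl and 0.999 in YAP5SA. The 8 immune cell markers summed to 52.2 to 76.0 CPM in Ctrl and 133 to 145 CPM in YAP5SA, almost all of it Cd68, Csf1r and Cd14, while Adgre1 was at 0 counts in all libraries. The 5 mesothelial markers summed to 3680 to 4330 and 3000 to 3310 CPM, nearly all of it Msln. Msln and Upk1b were called lower, by 0.42 and 0.45 on the log2 scale, while Upk3b and Wt1 were called higher. Upk3b went from 23.4 ± 11.0 to 101 ± 13.7 CPM (SD, n = 4 each). Wt1 was at 0 counts in Ctrl and at 0.547 to 1.51 CPM in YAP5SA. Smooth muscle, endothelial and neural markers summed to at most 1.44, 2.13 and 5.02 CPM in any library. The part of these markers in the results below was not tested. The groups also differed completely in sex-linked transcripts. Xist was at 476 to 633 CPM in Ctrl and at most 0.416 CPM in YAP5SA, while Ddx3y, Kdm5d, Uty and Eif2s3y had 0 counts in Ctrl and 40.1 CPM or more in every YAP5SA library. Genotype and sex-linked transcripts therefore cannot be told apart in any result below, and in bulk samples fewer cells of a type and less RNA per cell cannot be told apart either.

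The following 4 stretches of promoter are shown because Maff rose most and Fosl2 and Jun fell. Each is the 150 bases before a transcription start listed by RefSeq (GRCm38.p6), 5′ to 3′ on the strand of the gene, with cAMP response element-like matches (TGACNTCA) in capitals. Windows were found for 8 of the 10 genes, and not for Fosl1 and Egr1. Maff has 3 listed starts, of which the second and the last are given (chr15:79347370-79347519 and chr15:79348252-79348401, plus strand). The first start was left out and has no TGACNTCA match in its window. Which of the 3 starts these organoids use was not tested. The stretch of Jun is chr4:95052223-95052372 on the minus strand and that of Fosl2 is chr5:32136322-32136471 on the plus strand.
Maff, second start: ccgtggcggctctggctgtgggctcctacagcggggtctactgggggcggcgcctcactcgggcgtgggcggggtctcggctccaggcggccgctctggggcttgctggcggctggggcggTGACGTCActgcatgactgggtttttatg
Maff, last start: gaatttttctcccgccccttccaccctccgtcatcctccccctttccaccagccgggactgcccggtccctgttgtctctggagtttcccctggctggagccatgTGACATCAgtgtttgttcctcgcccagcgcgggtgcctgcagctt
Jun: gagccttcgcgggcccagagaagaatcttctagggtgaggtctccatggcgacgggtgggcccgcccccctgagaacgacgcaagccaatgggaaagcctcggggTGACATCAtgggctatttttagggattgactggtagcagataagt
Fosl2: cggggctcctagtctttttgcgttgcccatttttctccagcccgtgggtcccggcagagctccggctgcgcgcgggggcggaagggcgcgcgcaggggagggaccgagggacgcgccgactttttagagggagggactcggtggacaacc
In Maff the match at the second start is the full palindrome TGACGTCA, whose first base lies 29 bases before that start. The last start of Maff and the start of Jun each have TGACATCA, beginning 45 bases before the start. Over whole windows of 250 bases before to 50 after a start, read on both strands, TGACNTCA was present in 8.83% and TGACGTCA, which it includes, in 1.79% of all 32851 RefSeq windows. These shares are per window, whereas Maff has 3 windows in which a match could fall. Neither the AP-1 site TGANTCA (7.81% of all windows), the TEAD site GGAATG (14.7%) nor the CArG box bound by SRF (1.63%) was found in the windows of these 8 genes. TATAAA (13.6% of all windows) was found for Fos, 33 bases before its start, and for Junb, at its start. A match describes letters in this window and does not show binding. Sites farther from the start were not searched, so no match here does not mean that a gene lacks the site.

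The 10 genes did not move together. Maff, Fosb, Egr1 and Junb were higher in YAP5SA, Fosl1, Fosl2 and Jun were lower, and Fos, Jund and Atf3 were not called. That is 4 higher and 3 lower of 10, beside 33.1% of all genes tested called higher, 31.3% called lower and 64.5% called in either direction. Their median log2 fold change was 0.06, beside 0.02 for all genes tested, and it was 0.24 with library size scaling and -0.05 with scaling on reference genes. In 3 genes all YAP5SA libraries lay above all Ctrl libraries and in 2 genes all lay below, where 30.4% and 28.3% of all genes tested did so. The share of the family that changed was thus close to that of the whole table. In 3 of the 10 genes, Maff, Fosb and Fosl1, the difference was more than 2-fold, as in 25.8% of all genes tested.

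**Figure D1:**
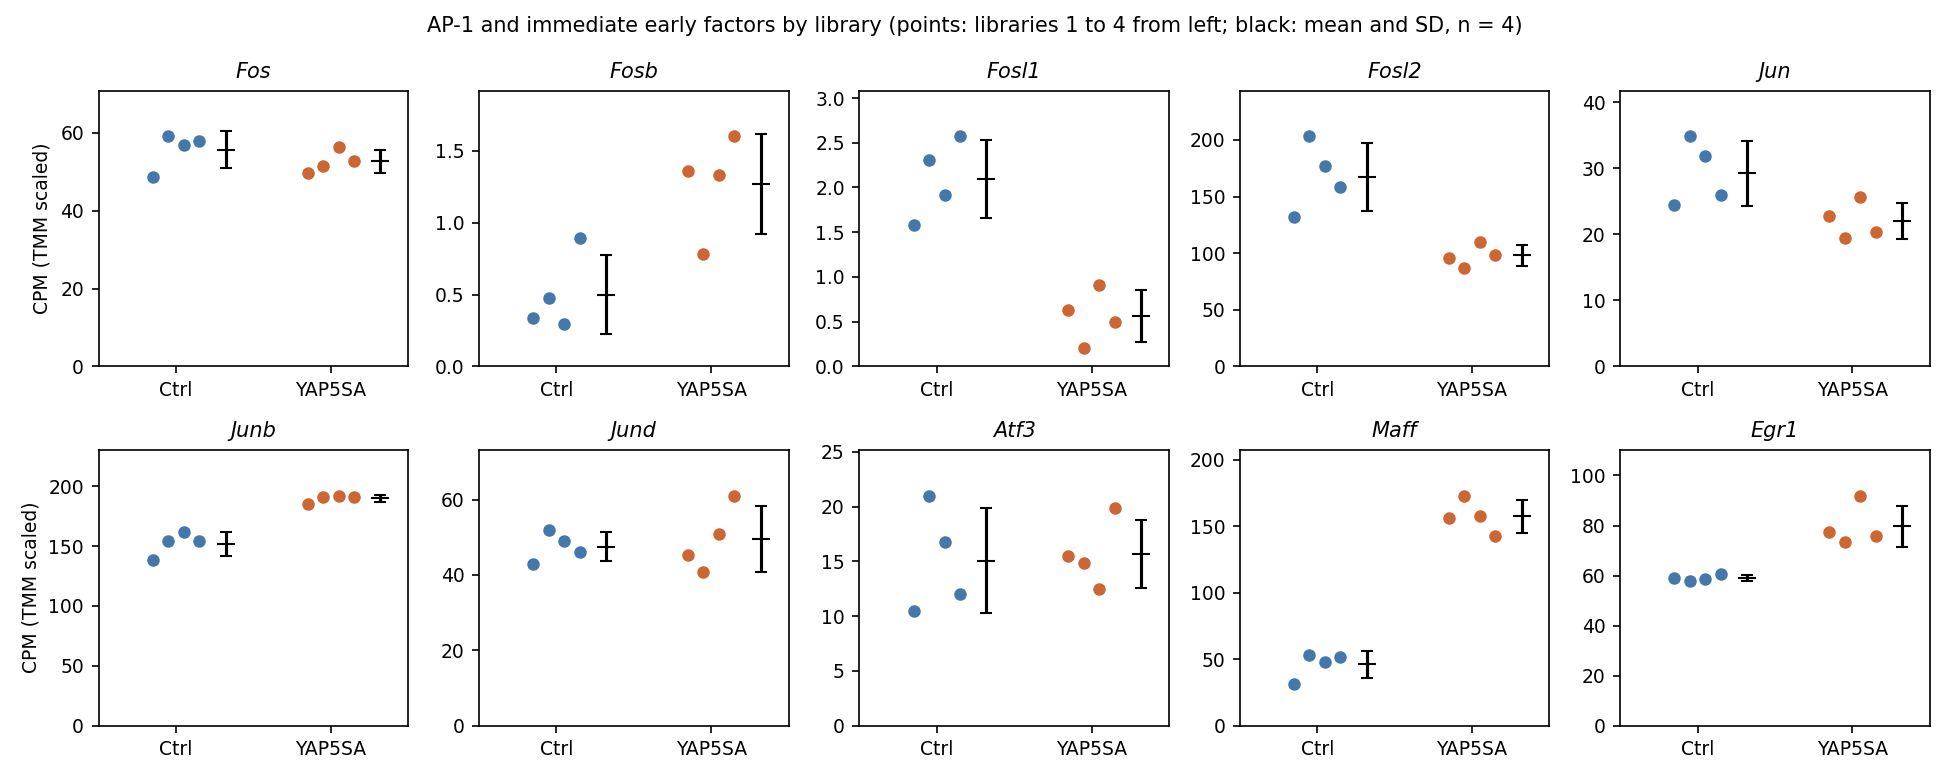
TMM-scaled CPM of each gene in each library, 4 Ctrl (blue) and 4 YAP5SA (orange), every axis starting at 0, with the mean and SD of each group in black. Maff lies between 31.5 and 53.3 CPM in Ctrl and between 143 and 173 CPM in YAP5SA, while the groups overlap for Fos, Fosb, Jun, Jund and Atf3.

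Within the FOS family, which supplies the partner of JUN proteins, the founding gene Fos was at 48.6, 59.1, 57.0 and 57.9 CPM in Ctrl replicates 1 to 4. In YAP5SA replicates 1 to 4 it was at 49.8, 51.6, 56.5 and 52.8 CPM. The YAP5SA values lay inside the Ctrl range. The log2 fold change was -0.08 (SE 0.08, edgeR adjusted p = 0.414), and 0.10 with library size scaling, where it was not called either.

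Fosl2 encodes FRA2, a FOS relative without the strong activation domain of FOS. Its level was 132, 203, 177 and 158 CPM in the Ctrl libraries and 96.1, 86.9, 110 and 98.8 CPM in the YAP5SA libraries. Every YAP5SA library was below every Ctrl library, with Ctrl replicate 1 the nearest. Fosl2 fell by 0.77 on the log2 scale (SE 0.12, edgeR adjusted p = 4.85e-05), from 167 ± 29.9 to 98.0 ± 9.56 CPM (SD, n = 4 each).

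Fosl1, the gene of FRA1, was scarce in these cultures. It had 28, 39, 46 and 46 counts in the Ctrl libraries and 14, 4, 17 and 11 in the YAP5SA libraries. As CPM these were 1.58 to 2.57 against 0.208 to 0.906, with no overlap. Fosl1 fell by 1.88 on the log2 scale (SE 0.37, edgeR adjusted p = 0.000512). FRA1 is often described as an AP-1 protein of invasive epithelial cells and of YAP-dependent transcription, and here its RNA was lower with YAP5SA.

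Fosb, a FOS relative known for strong and brief induction, was the least abundant of the 10 in Ctrl. It had 6, 8, 7 and 16 counts in Ctrl and 30, 15, 25 and 35 in YAP5SA. The groups overlapped, since Ctrl replicate 4 at 0.894 CPM was above YAP5SA replicate 2 at 0.780 CPM. Fosb rose by 1.36 on the log2 scale (SE 0.40, edgeR adjusted p = 0.00882), with values from 1.13 without Ctrl replicate 3 to 1.77 without Ctrl replicate 4. At such counts both changes rest on few reads.

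In the JUN family, Jun itself was at 24.4, 34.8, 31.8 and 25.9 CPM in Ctrl and 22.7, 19.5, 25.6 and 20.4 CPM in YAP5SA. YAP5SA replicate 3 lay above Ctrl replicate 1, so the groups overlapped. Jun fell by 0.41 on the log2 scale (SE 0.13, edgeR adjusted p = 0.0125). Its call ended with library size scaling, where the value was -0.23 (edgeR adjusted p = 0.13).

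Junb, whose protein is a weaker activator than JUN at many sites and can oppose it, was the most abundant of the 10 per length in both groups. Its libraries were at 138, 154, 162 and 154 CPM in Ctrl and 185, 191, 192 and 191 CPM in YAP5SA. No value overlapped, and the YAP5SA libraries were within 7 CPM of one another. The rise was small, 0.32 on the log2 scale (SE 0.07, edgeR adjusted p = 0.00101), or 1.25-fold.

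Jund, the member that most cells express without a stimulus, was at 43.0 to 51.8 CPM in Ctrl and 40.8 to 61.0 CPM in YAP5SA. YAP5SA held both the lowest and the highest value. The log2 fold change of Jund was 0.06 (SE 0.11, edgeR adjusted p = 0.666), and it was -0.04 with scaling on reference genes.

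Maff showed the largest rise of the 10. It encodes a small MAF protein, which has a leucine zipper but no activation domain and pairs with NRF2, BACH1 or itself at antioxidant response elements. In Ctrl it was at 31.5, 53.3, 48.0 and 51.3 CPM, with replicate 1 lowest. In YAP5SA it was at 156, 173, 158 and 143 CPM, all above every Ctrl value. From 46.1 ± 9.92 to 157 ± 12.3 CPM (SD, n = 4 each), Maff rose 3.41-fold, by 1.77 on the log2 scale (SE 0.13, edgeR adjusted p = 5.44e-08). Only 6.58% of all genes tested had a higher log2 fold change.

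Egr1, which activates growth and stress genes and is held in check by NAB proteins, was at 59.0, 57.9, 58.8 and 60.7 CPM in Ctrl. The YAP5SA libraries were at 77.3, 73.5, 91.9 and 76.0 CPM. All 4 lay above Ctrl, and YAP5SA replicate 3 stood highest. Egr1 rose by 0.43 on the log2 scale (SE 0.08, edgeR adjusted p = 0.000347), or 1.35-fold.

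Atf3, a stress-induced factor that represses transcription as a homodimer, was at 10.5, 21.0, 16.8 and 12.0 CPM in Ctrl and 15.5, 14.9, 12.5 and 19.9 CPM in YAP5SA. The YAP5SA values fell inside the Ctrl range. The log2 fold change was 0.06 (SE 0.20, edgeR adjusted p = 0.813), and between -0.11 and 0.23 when single libraries were left out.

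**Figure D2:**
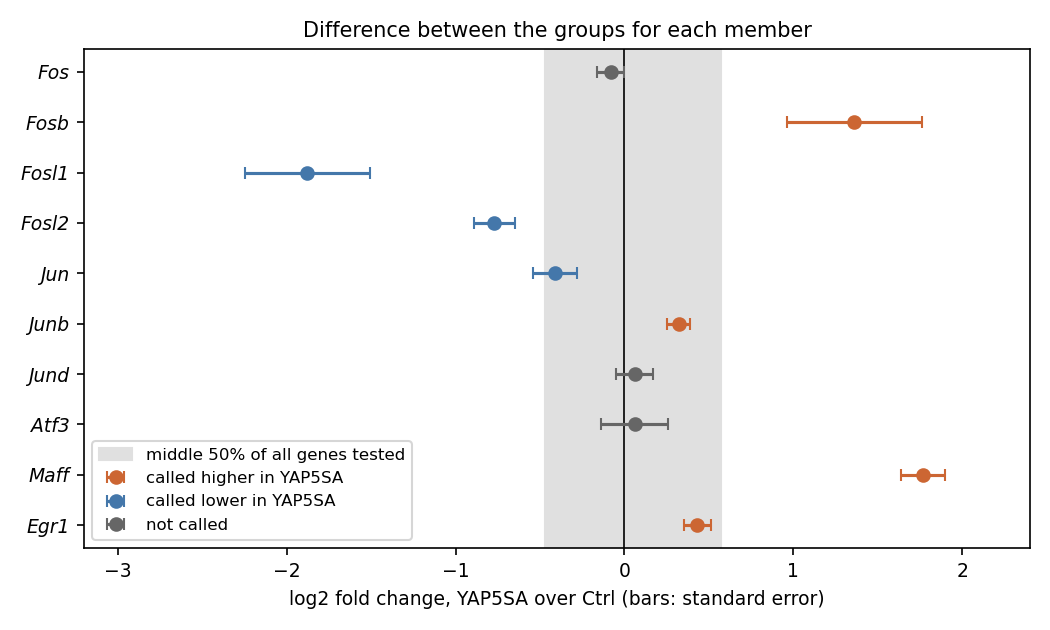
Log2 fold change of YAP5SA over Ctrl for each gene, with its standard error as a bar and the middle 50% of all genes tested (-0.47 to 0.57) as a grey band. Maff, Fosb, Fosl1 and Fosl2 lie outside the band, on both sides of 0, while Junb, Egr1 and Jun were called at values inside it.

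Within each group the genes shared some order over the libraries. Ctrl replicate 1 had the lowest value of the 4 Ctrl libraries for 8 of the 10 genes, all but Fosb and Egr1, and it was lowest for 28.2% of all genes tested. Ctrl replicate 2 was highest for 6 (Fos, Fosl2, Jun, Jund, Atf3 and Maff), against 24.6% of all genes tested. In the other group, YAP5SA replicate 2 was lowest for 6 genes (24.8% of all tested) and YAP5SA replicate 3 highest for 6 (25.3%). The 7 called genes kept their calls and directions without any 1 library, Ctrl replicate 1 included, without which Maff was at 1.60 and Fosl2 at -0.90.

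Set against each other per kilobase of the longest coding transcript, the levels in Ctrl ran from Junb at 83.9 ± 5.59 CPM per kb down to Fosb at 0.132 ± 0.0724 (SD, n = 4 each). Below Junb came Jund (28.5), Fos (26.4), Fosl2 (25.6) and Maff (23.5 CPM per kb), neighbours whose ranges over libraries overlapped. Egr1 (13.2), Jun (9.16) and Atf3 (7.61) followed, the last pair overlapping, and then Fosl1 (1.12). In YAP5SA Junb was again first, at 105 ± 1.87 CPM per kb, and Maff came second at 80.2 ± 6.28, with no overlap with its neighbours. Jund (24.5 to 36.6) and Fos (23.6 to 26.8) overlapped, as did Egr1 (16.4 to 20.5) and Fosl2 (13.3 to 16.8), Atf3 (7.91) and Jun (6.91), and Fosb (0.335) and Fosl1 (0.302 CPM per kb). Maff thus went from the fifth to the second place and Fosl2 from the fourth to the sixth.

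The make-up of each family was compared as the share of each gene in the family's transcripts, counts per length being summed over the family in each library. With the median transcript length of each gene, Fos made up 59.1%, 53.5%, 56.1% and 58.2% of FOS family transcripts in Ctrl and 67.6%, 71.2%, 67.2% and 68.4% in YAP5SA. Fosl2 went the other way, with 37.3% to 43.0% in Ctrl and 28.1% to 30.7% in YAP5SA. Neither pair of ranges overlapped. The shift toward Fos was 11.9 percentage points (exact permutation test, two-sided, p = 0.0286, adjusted p = 0.0333 over 7 shares), and Fosl2 dropped by 9.82 points with the same exact p. That p is the smallest that 70 divisions of 4 and 4 libraries can give. Without any 1 Ctrl library the exact p of both was again 0.0286, the smallest that the remaining libraries can give. The adjusted p was then 0.05, no longer under the threshold, as the exact p of the Fosb and Junb shares had risen. As Fos itself was not called, its larger share went with the lower level of Fosl2: summed per kb of longest coding transcript, the family was at 44.1 to 60.4 CPM per kb in Ctrl and 38.1 to 44.5 in YAP5SA.

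The scarce members shifted too. Fosl1 made up 3.48% ± 0.526 of FOS family transcripts in Ctrl and 1.18% ± 0.553 in YAP5SA, and Fosb 0.114% ± 0.0603 and 0.369% ± 0.0961 (SD, n = 4 each). Both exact permutation p were 0.0286 (adjusted p = 0.0333). Without any 1 of the 4 Ctrl libraries both calls ended. The adjusted p was 0.0667 for Fosb (exact permutation p = 0.0571) and 0.05 for Fosl1, whose exact permutation p was again 0.0286. These 2 small shares depend on the length used. With the longest coding transcript they were 2.11% and 0.730% for Fosl1 and 0.248% and 0.823% for Fosb, and those of Fos were 49.8% and 61.6%, each pair with the same direction and exact p.

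Junb held most of the JUN family in every library, 76.1% to 78.9% in Ctrl and 79.5% to 84.4% in YAP5SA, a difference of 4.07 points (exact permutation p = 0.0286, adjusted p = 0.0333). This call also ended without any 1 Ctrl library, with an exact permutation p of 0.0571 (adjusted p = 0.0667). Jun went from 5.39% ± 0.637 to 3.43% ± 0.412 of the family (SD, n = 4 each; the same exact p, with an adjusted p of 0.05 without any 1 Ctrl library). For Jund the shares were 16.8% ± 0.630 and 14.7% ± 2.11 (SD, n = 4 each) and overlapped (exact permutation p = 0.114, adjusted p = 0.114). Without YAP5SA replicate 4, which had the highest share of Jund in its group at 17.5%, the difference in share was -3.05 points (exact permutation p = 0.0286). With the longest coding transcript Junb held 67.0% to 70.4% in Ctrl and 71.1% to 77.5% in YAP5SA. Mean shares were then 7.51% and 4.89% for Jun and 23.4% and 20.9% for Jund, so the levels depend on the length and the directions do not.

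The 3 small MAF genes differed most in make-up, a comparison chosen after their values were seen and given without a test. Per kb of longest coding transcript, Maff held 34.8%, 41.2%, 41.0% and 39.0% of small MAF transcripts in Ctrl and 75.2%, 76.6%, 75.2% and 72.8% in YAP5SA. Mafk held 39.9% to 42.3% in Ctrl and 16.9% to 19.3% in YAP5SA, and Mafg 18.7% to 22.9% and 6.55% to 7.85%. With median transcript lengths Maff held 20.1% and 55.6%, so the level of these shares depends on the length while the direction does not. Mafg fell by 0.60 on the log2 scale (SE 0.08, edgeR adjusted p = 2.11e-05) and Mafk fell by 0.37 (SE 0.10, edgeR adjusted p = 0.0048).

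**Figure D3:**
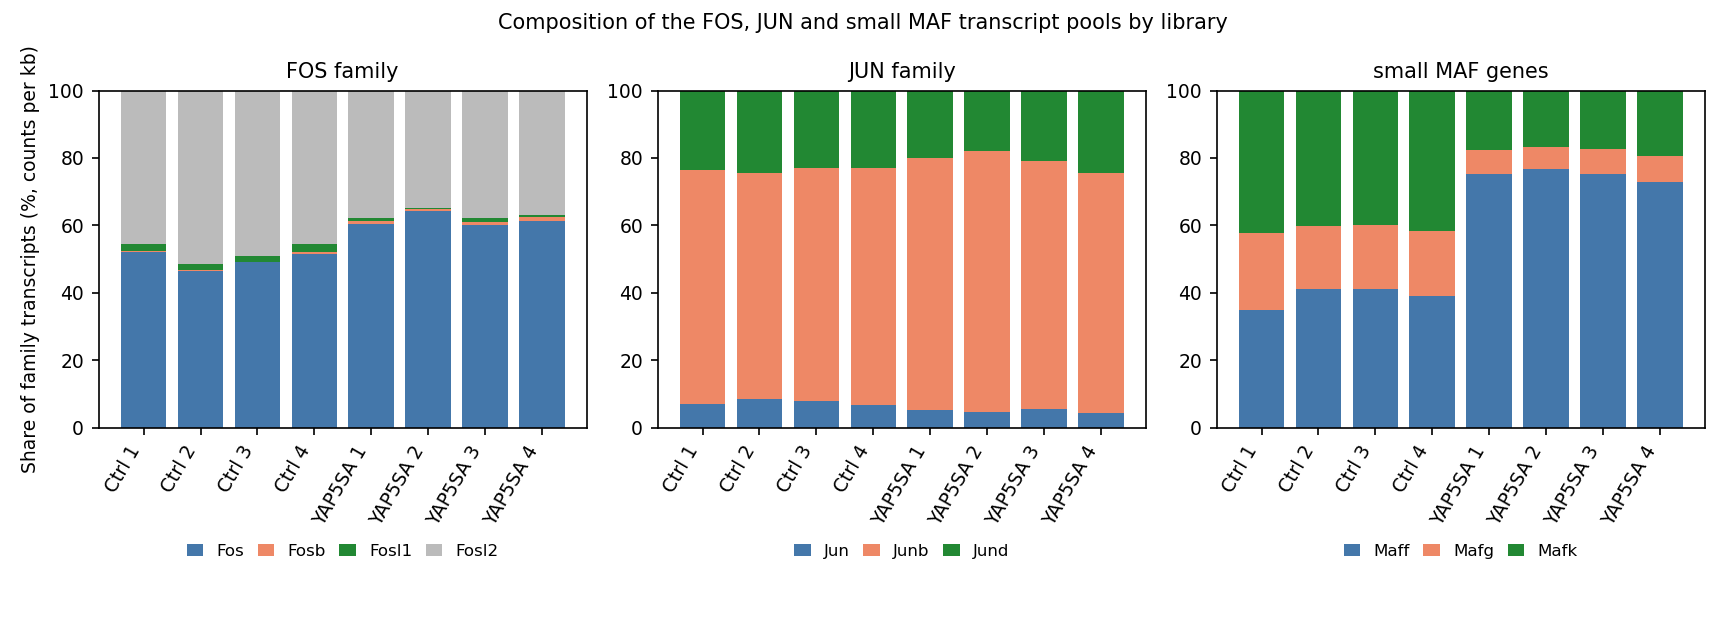
Share of each gene in FOS, JUN and small MAF transcripts (percent, counts per kb of longest coding transcript) in each library, stacked to 100. Fos rises from 49.8% to 61.6% of the FOS family on average, Junb is the largest part of the JUN family in every library, and Maff is the largest part of the small MAF genes in every YAP5SA library.

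Other genes of these pathways are given from lists, each by its counts. Other basic leucine zipper genes that pair with AP-1 or small MAF proteins were called in 10 of 16 tested, 4 higher and 6 lower, with a median log2 fold change of -0.20 beside 0.02 for all genes tested. That is 62.5% called, near the 64.5% of all genes tested. The split was 7 higher and 5 lower with library size scaling and 3 and 8 with scaling on reference genes. Nfe2l2, which encodes NRF2, the activator that small MAF proteins carry to DNA, fell from 651 ± 61.9 to 175 ± 15.8 CPM (SD, n = 4 each; log2 fold change -1.89, SE 0.09, edgeR adjusted p = 4.69e-10). From the list of AP-1 targets below, the quinone reductase gene Nqo1, also a target of NRF2, fell by 4.84 on the log2 scale (SE 0.18). Hmox1, on that list too, rose by 0.82 (SE 0.20, edgeR adjusted p = 0.00239). The part of NRF2 in either gene was not tested. Ddit3, the gene of the stress factor CHOP, rose by 1.59 (SE 0.22), and Jdp2, whose protein dimerizes with JUN and represses AP-1, rose by 1.22 (SE 0.14). Of the 24 genes listed, 8 were not tested, among them Batf and Nrl with 0 counts.

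Of 40 other immediate early genes, 35 were tested, of which 15 were higher, 10 were lower and 10 were not called, and the median was 0.21. Of these 71.4% were called, against 64.5% of all genes tested. Sik1, a kinase gene induced by cAMP, went from 13.6 ± 0.865 to 101 ± 5.03 CPM (SD, n = 4 each; log2 fold change 2.89, SE 0.08, edgeR adjusted p = 4.11e-12). Dusp1, whose phosphatase switches off MAP kinases, went from 15.1 ± 4.61 to 154 ± 13.2 CPM (3.35, SE 0.16). The growth arrest genes Gadd45g (2.08, SE 0.16) and Gadd45b (1.77, SE 0.10), the clock gene Per1 (1.88, SE 0.12) and the kinase gene Plk2 (1.29, SE 0.11) rose as well. In the other direction, Klf4, a factor of differentiating epithelium, fell by 2.97 (SE 0.14) and Btg2, an antiproliferative gene, fell by 1.01 (SE 0.07) on the log2 scale. Among close relatives of Egr1, Egr3 had 39, 16, 37 and 38 counts in Ctrl and 3, 0, 5 and 1 in YAP5SA (log2 fold change -3.88, SE 0.56, edgeR adjusted p = 3.5e-05), a gene picked for its values.

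Upstream, the MAP kinase and SRF genes were higher in 6, lower in 12 and not called in 8 of 26 tested, with a median of -0.18. Of these genes 69.2% were called, near the 64.5% of all genes tested (33.1% higher and 31.3% lower). This split changed to 8 higher and 8 lower with library size scaling and to 4 and 15 with scaling on reference genes. Mapk8, which encodes the JUN kinase JNK1, rose from 52.4 ± 0.728 to 138 ± 11.0 CPM (SD, n = 4 each; log2 fold change 1.39, SE 0.08, edgeR adjusted p = 1.55e-09). Mapk3, which encodes ERK1, fell by 0.82 (SE 0.08) on the log2 scale. Among kinases downstream of ERK, Rps6ka5, the gene of MSK1, rose by 2.56 (SE 0.15) and Rps6ka1, the gene of RSK1, fell by 1.10 (SE 0.09).

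Coregulators of AP-1 and EGR1 were higher in 3, lower in 6 and not called in 4 of 13, with a median of -0.21 (4 higher and 3 lower with library size scaling). Here too 69.2% were called, beside 64.5% of all genes tested. The acetyltransferase genes Ep300 and Crebbp fell by 0.51 (SE 0.09) and 0.85 (SE 0.16) on the log2 scale. Nfatc2, a partner of AP-1 on DNA, fell by 1.37 (SE 0.16) on the same scale.

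Genes often described as AP-1 targets went both ways, with 11 higher, 8 lower and 3 not called of 22 tested and a median of 0.30. That is 86.4% called, against 64.5% of all genes tested. Matrix and migration genes were among the largest rises. Mmp14, a membrane matrix protease gene, went from 3.53 ± 0.519 to 157 ± 13.3 CPM (SD, n = 4 each; log2 fold change 5.48, SE 0.11, edgeR adjusted p = 5.75e-13). The urokinase gene Plau rose by 3.89 (SE 0.16) and the hyaluronan receptor gene Cd44 by 2.12 (SE 0.10). Among the 8 lower genes, Nqo1 fell by 4.84 (SE 0.18), Sprr2a1 by 3.59 (SE 0.32) and Ivl by 3.09 (SE 0.15) on the log2 scale. Some of these genes are also known YAP/TEAD targets, and 8 of the 30 listed were not tested.

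Heat shock and dissociation stress genes, which often move with immediate early genes when cells are handled, were higher in 5, lower in 1 (Hspa8, fell by 0.55, SE 0.08) and not called in 8 of 14. The share called was 42.9%, beside 64.5% of all genes tested. The median was 0.08, and -0.02 with scaling on reference genes. Hspa1a (0.32, SE 0.22, edgeR adjusted p = 0.222) and Hspa1b (-0.04, SE 0.19, edgeR adjusted p = 0.86), the inducible HSP70 genes, were not called. The chaperone genes Hsp90aa1, Hspa5, Dnajb4 and Hspb1 rose by 1.21, 1.25, 1.33 and 1.94 on the log2 scale. The part of handling in the immediate early genes was not tested.

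**Figure D4:**
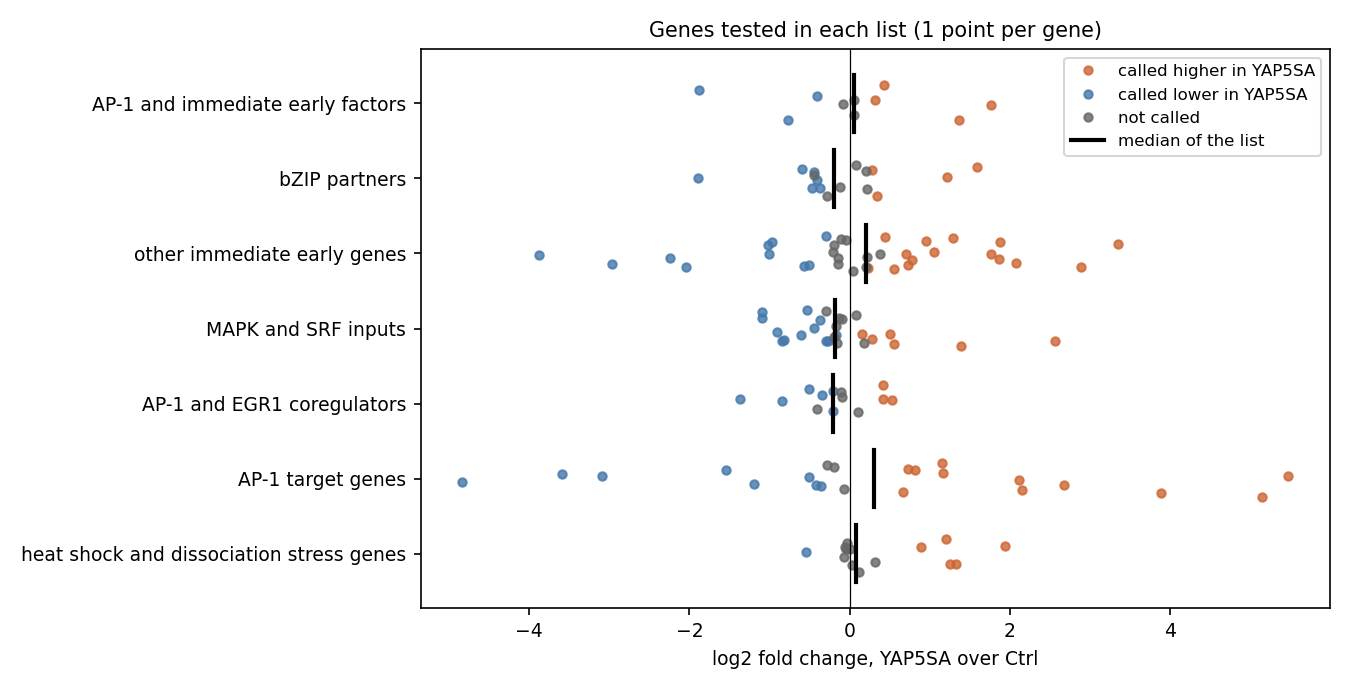
Log2 fold change of YAP5SA over Ctrl for the tested genes of each list (1 point a gene, vertical jitter without meaning), coloured by call, with the list's median as a black bar. Every list holds genes called in both directions, and the medians lie between -0.21 and 0.30.

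Genes with the most similar profile were sought among 10340 others that averaged 2 or more on the log2 CPM scale, as the smallest root mean square difference of centred log2 CPM over the 8 libraries. The nearest to Maff was Hopx, a homeodomain-only cofactor gene, at a difference of 0.096, with 9.10 ± 2.38 CPM in Ctrl and 30.5 ± 3.22 in YAP5SA (SD, n = 4 each). The nearest to Egr1 was Zfp36l1, an RNA-binding protein gene that is itself among the immediate early genes (0.062). Those nearest to Fosl2, Junb and Jun were the myosin gene Myo5b (0.055), Fam8a1 (0.035) and Mindy2 (0.058). For the scarce genes no profile came as near: 0.290 for Fosb (Trim3) and 0.305 for Fosl1 (Syt17). The nearest to Fos, Jund and Atf3 were Itsn2 (0.040), Strn (0.068) and Uxt (0.159).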

How the data were processed

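The table the authors deposited holds raw counts of reads for each gene in each library, without normalization. HISAT2 2.0.1, HTSeq 0.6.1, cutadapt and the build mm9 are named, per the submitters' processing notes. Annotation and strand setting: not given in the sources used here, so reads of overlapping genes cannot be assigned with certainty.

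Testing used edgeR 4.0.16 (R 4.3.3): filterByExpr (minimum count 10, minimum total 15), TMM scaling and the quasi-likelihood F test without covariates, two-sided, with Benjamini-Hochberg adjustment over 13812 genes and a threshold of 0.05. The SE is the size of the log2 fold change divided by the root of F. The common coefficient of variation between replicates beyond counting noise, which may be technical, came to 0.127. Family shares were compared by exact permutation over libraries. Lengths are from GENCODE M21 (GRCm38). Median lengths include short incomplete transcript models, so levels per length also use the longest coding transcript. Promoter stretches are from RefSeq (GRCm38.p6), a build other than mm9.

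Groups and replicate numbers come from the titles. Replicates of a group differed by more than sampling noise (chi-square per degree of freedom 4.69 to 34.9). In simulated data for this comparison with 13791 genes tested, 67 genes were changed 1.5-fold, 67 were changed 2-fold and 66 were changed 4-fold. Of these changes 67.2%, 98.5% and 100% were recovered, and 4.32% of calls were false. These rates belong to a setting with few changed genes. Whether they hold where the share called is 64.5%, as it is for these libraries, was not tested. The floor, 3 counts in 1 library, equals 0.116 to 0.173 CPM and covers counting error only.

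The 10 genes and all lists were chosen with earlier results of these data known. Named genes are the 10, up to 4 tested genes of each list (8 for immediate early genes) with the smallest p, the YAP target and sex-linked checks, and the nearest profiles. Mafk, Egr3, Hspa1a, Hspa1b, Hspa8, Hmox1, Sprr2a1 and Ivl were added after their values were seen. Single genes of the cell type marker lists were also named outside this rule. 1 gene that the rule names is not reported here. Alternatives were DESeq2 1.42.0, limma-voom (limma 3.58.1), RLE, upper quartile, library size and reference gene scaling, no filter, 1 CPM in 4 libraries, a replicate block, a least log2 difference of 1, leaving out genes above 1% of a library, other lengths, and leaving out each library.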

Additional observations from a re-analysis of the deposited data

Results flagged for a closer look

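In 6 of 128 groups of 4 libraries checked among the named genes and family shares, 1 library stood apart from the others by a gap that took up most of the group's range (Dixon's test at the 95% level), where chance flags about 1 in 20 groups. The gap was 0.854 of the range for Jdp2 in Ctrl, with replicate 4 at 8.21 CPM and the others at 12.7 to 13.5. For Gadd45g in YAP5SA it was 0.948, with replicate 1 at 18.6 CPM and the others at 20.7 to 20.8. For Ccn2 in YAP5SA it was 0.895 (replicate 4 at 1330 CPM, the others at 1090 to 1120). For Kdm5d in YAP5SA it was 0.912 (replicate 4 at 47.3 CPM, the others at 75.7 to 78.4). Ctrl replicate 1 stood low for Fam8a1 (0.846 of the range, 122 CPM against 141 to 144) and for Zfp36l1 (0.844, 170 CPM against 182 to 184). None of the 10 AP-1 and immediate early factors was among them.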

How the results depend on the processing

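Of the 10 genes, the same 4 were called higher and the same 3 lower when any 1 library was left out, with DESeq2, limma-voom, RLE, upper quartile and reference gene scaling, without a filter, without genes above 1% of a library and with the replicate block. Library size scaling ended the call of Jun, and Fosb was not tested with a filter of 1 CPM in 4 libraries. Requiring a difference above 1 on the log2 scale left 2221 genes called and, of the 10, 1 higher (Maff) and 1 lower (Fosl1). It left 2 of the basic leucine zipper partners, 11 other immediate early genes, 2 MAP kinase and SRF genes, 1 coregulator and 10 AP-1 targets. Library size scaling moved the median of all genes to 0.19 from 0.02, with 5742 called higher and 3201 lower against 4577 and 4330, and reference gene scaling moved it to -0.08. Without single libraries the difference in share was 10.8 to 12.7 points for Fos, 0.224 to 0.298 for Fosb, -2.50 to -2.05 for Fosl1, -10.6 to -8.71 for Fosl2, -2.15 to -1.68 for Jun, 3.23 to 4.88 for Junb and -3.05 to -1.38 for Jund. Without any 1 Ctrl library the adjusted p was 0.05 for Fos, Fosl1, Fosl2 and Jun and 0.0667 for Fosb and Junb, so that these 6 calls ended. For Fos, Fosl1, Fosl2 and Jun the exact permutation p stayed at 0.0286, the smallest that the remaining libraries can give. Their adjusted p rose because the exact permutation p of Fosb and Junb went to 0.0571. The end of these calls thus reflects the coarse steps of the test and does not show that the shifts depend on 1 library. The labels do not say whether the replicate numbers pair the samples. Deviations of same-numbered libraries correlated at 0.065, 0.046, 0.090 and 0.281, and those of libraries with different numbers at -0.192 to 0.131. Not every library correlated best with its own number. With the replicate block 9174 genes were called, against 8907 without it. Whether the numbers mark pairs or a shared batch cannot be decided from these values. Counts of 4 to 46 limit Fosb and Fosl1.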
